A study of Mus musculus with 12 samples.

Results

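Array signals for the RNA of 10 genes of transforming growth factor beta (TGF-beta) and bone morphogenetic protein (BMP) signalling were followed. The tissue was cut out as epithelium of the mouse conjunctival fornix, the fold where the conjunctiva of the eyelid turns back onto the eye. Activity of the pathways was not measured. The genes are the ligands Tgfb1, Tgfb2, Tgfb3, Bmp2, Bmp4 and Bmp7, the receptor Tgfbr2, the secreted BMP antagonist Grem1 and the BMP-induced transcriptional regulators Id1 and Id3. They were picked by gene symbol, as the probe sets that the platform annotation gives to these 10 of the 14163 genes that could be tested. The 10 genes have 18 probe sets among the 45101 on the array, of which 15 lay above a floor on low signal, and each gene kept at least 1. The brightest kept probe set of a gene is its main measurement, and the others are given beside it. In RefSeq, Tgfb2 lies on chromosome 1, Bmp2, Bmp7, Id1 and Grem1 on chromosome 2, Id3 on chromosome 4, Tgfb1 on chromosome 7, Tgfbr2 on chromosome 9, Tgfb3 on chromosome 12 and Bmp4 on chromosome 14.

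Each of 4 groups holds 3 arrays: mice labelled Klf4CN, a conditional knockout of the transcription factor Klf4, at postnatal day 14 (PN14), and wild-type mice at PN9, PN14 and PN20. All are of a mixed background, and the epithelial layer was cut out by laser capture. The sources used here give neither the Cre driver of the knockout nor the animal of each sample, although the design calls the samples independent, so p-values measure the spread between these samples, which may in part be technical. Values are array signals scaled to a common median, on a linear scale, and changes are log2 of the signal plus 16, with limma's standard error (SE). A change passed at an adjusted p under 0.05 after Benjamini-Hochberg adjustment over all 14163 genes.

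TGF-beta and BMP ligands are secreted dimers that bring together type I and type II receptor serine/threonine kinases, which phosphorylate Smad proteins that enter the nucleus and regulate genes. TGF-betas restrain epithelial growth and drive matrix production in stroma, while BMPs induce the Id genes and are held in check by secreted antagonists. In the eye both families take part in eyelid, corneal and lens development.

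The arrays labelled Klf4CN did not show a lower Klf4 signal. The brighter Klf4 probe set read 10923, 8815 and 7417 on the arrays labelled Klf4CN, against 4385, 6824 and 5285 in wild type at PN14, a log2 difference of 0.72 ± 0.19 (SE, adjusted p 0.220). The sources used here do not name the deleted part of Klf4, and a probe set outside it cannot check the labels, so these groups are called by their labels throughout. The 5 goblet cell markers summed to 272.0 to 398 on the arrays labelled Klf4CN, against 1214 to 1959 in wild type at PN14. The goblet cell mucin Muc5ac averaged 3.44 and was Present on 0 of 3 arrays labelled Klf4CN, against 821 and 3 of 3 in wild type at PN14. All 11 epithelial markers were Present on every array, but so were all 12 fibroblast and stromal markers. Lens and retina markers summed to 941 to 11951 at PN9, 5389 to 13356 at PN14 and 10817 to 12609 at PN20. On the arrays labelled Klf4CN they summed to 1090 to 13799. Gland and hair follicle markers summed to 283 to 1019, 459 to 15853, 1732 to 8689 and 7402 to 19073 in the same order. The part of these tissues in the results was not tested. Replicate arrays correlated at r = 0.922 to 0.975 over probe sets, and the number of arrays and the brightness of the probe sets limit the precision.

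From PN9 to PN20 the TGF-beta and BMP genes were lower, and 5 of the 10 passed the test. Tgfbr2, Tgfb2, Tgfb3, Bmp4 and Grem1 fell by 1.77-fold to 2.06-fold, and none of the 10 rose. Among all 14163 genes 10.8% fell and 13.5% rose, 24.3% in all. The median log2 change of the 10 genes was -0.86, beside 0.02 for all genes, and 10 of 10 values were below 0, among them that of Tgfb1, which was not above background. At an unadjusted p under 0.05, 8 were lower, as were 16.9% of all genes. The count of 5 was 1 without PN9 replicate 1 and 3 without PN9 replicate 2 or any 1 of the PN20 arrays. These counts are not always of the same genes. Without PN20 replicate 3, Tgfb2, Tgfb3 and Grem1 lost their calls and Id1 gained one. Without PN9 replicate 3, Tgfb2 and Tgfb3 lost their calls and Id1 and Id3 gained them. In 7 of the 10 all PN20 arrays lay below all PN9 arrays, which held for 18.5% of all genes. Over the 3 ages together, limma's moderated F passed for Tgfbr2 (adjusted p 0.00721), Bmp4 (0.0299), Grem1 (0.0340) and Tgfb2 (0.0466), 4 of the 10 genes, where 20.1% of all genes passed. That count was 1 without PN9 replicate 1 or PN20 replicate 2, 2 without PN9 replicate 3, PN14 replicate 1 or PN20 replicate 3, and 6 without Klf4CN replicate 3.

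**Figure D1:**
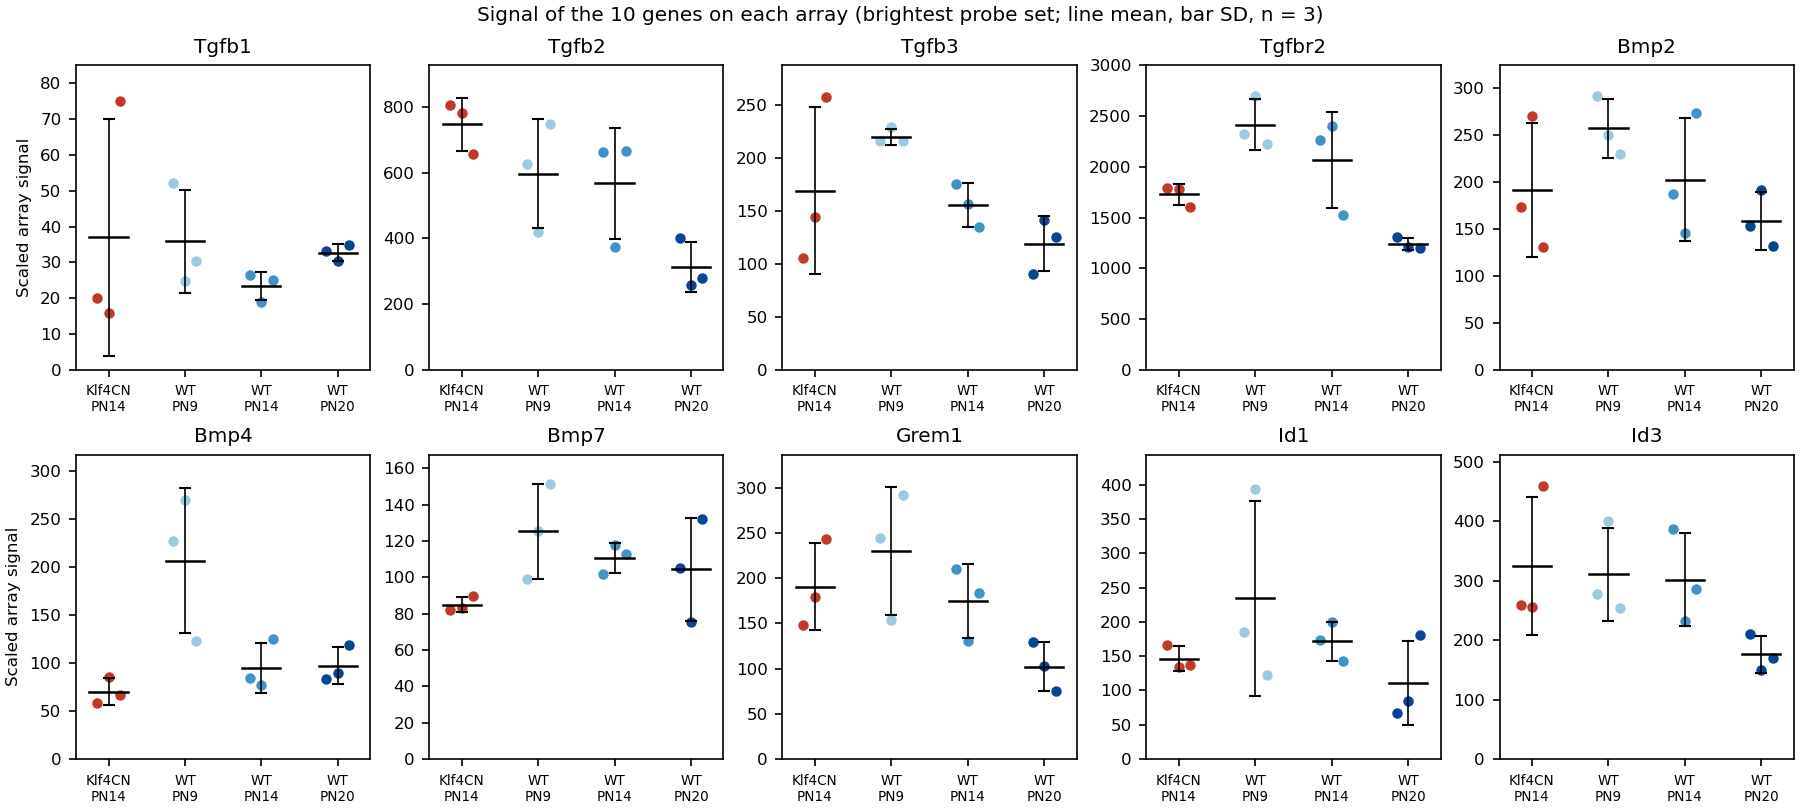
Scaled signal (vertical axis, linear, starting at 0) of the brightest probe set of each of the 10 genes, with a point for each array, a line at the mean and a bar of 1 SD (n = 3) for Klf4CN and wild type at PN9, PN14 and PN20. For Tgfbr2, Grem1 and Tgfb2 the PN20 points lie below the PN9 points, and for Bmp4 the PN9 points spread from 122 to 269.

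The 300 bases around the start site are shown for the 4 genes that passed over the 3 ages, since these are the promoters of the genes whose signal moved with age. They run from 250 bases before to 50 bases after the RefSeq start of each gene on assembly GRCm38.p6, 5′ to 3′ on the strand of the gene. RefSeq windows were matched for 6 of the 10 genes. Capitals mark CAGAC or GTCTG, the core of the Smad-binding element, and CACCC or GGGTG, the box that Krüppel-like factors can bind, each on either strand.
Tgfb2, chr1:186705940-186706239, minus strand: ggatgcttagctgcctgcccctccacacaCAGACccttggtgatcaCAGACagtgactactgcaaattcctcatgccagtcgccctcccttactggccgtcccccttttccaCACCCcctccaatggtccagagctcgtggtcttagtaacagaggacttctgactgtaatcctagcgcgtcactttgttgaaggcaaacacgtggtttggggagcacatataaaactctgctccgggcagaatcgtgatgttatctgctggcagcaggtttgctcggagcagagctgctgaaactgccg
Tgfbr2, chr9:116175314-116175613, minus strand: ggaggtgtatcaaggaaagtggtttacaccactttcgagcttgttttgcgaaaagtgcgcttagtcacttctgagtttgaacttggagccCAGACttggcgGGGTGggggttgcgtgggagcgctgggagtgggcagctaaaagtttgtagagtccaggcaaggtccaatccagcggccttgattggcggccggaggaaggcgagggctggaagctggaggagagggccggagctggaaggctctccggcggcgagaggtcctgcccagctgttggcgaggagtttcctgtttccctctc
Bmp4, chr14:46390620-46390919, minus strand: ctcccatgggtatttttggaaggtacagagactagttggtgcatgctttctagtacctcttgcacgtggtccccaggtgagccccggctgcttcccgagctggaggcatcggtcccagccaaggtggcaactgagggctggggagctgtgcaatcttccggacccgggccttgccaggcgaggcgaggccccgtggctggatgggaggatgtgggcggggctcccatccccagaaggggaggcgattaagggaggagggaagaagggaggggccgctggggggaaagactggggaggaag
Grem1, chr2:113758599-113758898, minus strand: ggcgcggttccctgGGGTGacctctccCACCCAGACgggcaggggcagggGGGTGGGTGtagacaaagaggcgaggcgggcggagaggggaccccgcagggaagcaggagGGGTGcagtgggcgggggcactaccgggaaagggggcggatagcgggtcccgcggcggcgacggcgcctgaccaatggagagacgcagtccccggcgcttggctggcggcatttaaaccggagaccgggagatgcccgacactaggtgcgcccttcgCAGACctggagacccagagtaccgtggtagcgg
The Smad letters occur in 49.59% and the CACCC letters in 57.52% of 32851 promoter windows of the same length, so either match is common. Tgfb2 holds 2 Smad boxes at positions -221 and -204 and a CACCC box at -138, counted from the start site, and a TATAAA element at -31, which 13.62% of windows hold. Tgfbr2 has 1 Smad box at -160 followed by 1 CACCC box at -149. Grem1 has 5 CACCC boxes and 2 Smad boxes, of which 1 of each overlap in CACCCAGAC and 2 CACCC boxes overlap in GGGTGGGTG. None of these letters is in the Bmp4 window. A match describes the letters only.

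Tgfb2, the isoform of TGF-beta with a large part in eye development, fell between PN9 and PN20. Its brightest probe set read 401, 259 and 279.7 at PN20, against 626, 419.7 and 748 at PN9, so that all PN20 arrays were the lower ones. The change was -0.89 ± 0.27 on the log2 scale (SE, adjusted p 0.0278), or 1.85-fold lower. At PN14 it read 664, 373 and 668, which spans nearly the PN9 range, and the step from PN14 to PN20 did not pass (-0.80, adjusted p 0.138). Without PN9 replicate 1 or 3, or PN20 replicate 2 or 3, the fall from PN9 to PN20 did not pass, with adjusted p between 0.0863 and 0.102.

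The other probe sets of Tgfb2 did not all behave alike. The probe set 1423250_a_at read 100.1, 71.1 and 76.5 at PN20, against 153, 152 and 137 at PN9, a change of -0.74 ± 0.20 (SE, adjusted p 0.0223 over all kept probe sets). The probe set 1450922_a_at read 126, 82.4 and 77.5 at PN20, against 93.2, 99.6 and 98.0 at PN9, with overlapping groups and a change of -0.05. The fourth, 1438303_at, was dim, with a Present call on 2 of 3 arrays labelled Klf4CN and on 1, 3 and 0 of 3 at PN9, PN14 and PN20. Where on the transcript each probe set lies was not examined.

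Tgfb3 fell from PN9 to PN20 as well. It read 90.8, 141 and 125 at PN20, against a narrow 216, 229 and 216 at PN9, a change of -0.82 ± 0.26 (SE, adjusted p 0.0337), or 1.77-fold lower. At PN14 the values of 176, 156 and 135 lay below all PN9 arrays, which held for 12.8% of all genes, but that step alone did not pass (-0.47, adjusted p 0.272). The call was lost without any 1 of the PN9 arrays or without PN20 replicate 1 or 3, with adjusted p between 0.0579 and 0.141. Tgfb1, the isoform known best from immune and wound settings, was not well above background. Its brighter probe set was called Present on 1 array labelled Klf4CN and on none of the wild-type arrays, where it lay between 19.0 and 52.1, and the other probe set was Present on no array. No fold is given for Tgfb1 between ages.

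Tgfbr2, the type II receptor through which TGF-beta ligands signal, had the smallest adjusted p of the 10 genes. It read 1311, 1208 and 1202 at PN20, against 2323, 2702 and 2222 at PN9. The PN20 arrays lay close together and below every other wild-type array. The fall was -0.95 ± 0.19 (SE, adjusted p 0.00283), or 1.93-fold, and it passed in all 28 alternative analyses tried, among them the removal of each array in turn. At PN14 the values of 2259.8, 2406 and 1526 spread between the other ages. The levels ran PN9, PN14, PN20 from high to low, and neither neighbouring pair passed (-0.25, adjusted p 0.430, from PN9 to PN14, and -0.70, adjusted p 0.0756, from PN14 to PN20). The other 2 probe sets of Tgfbr2 were below the floor and Present on 0 or 1 array of a group.

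**Figure D2:**
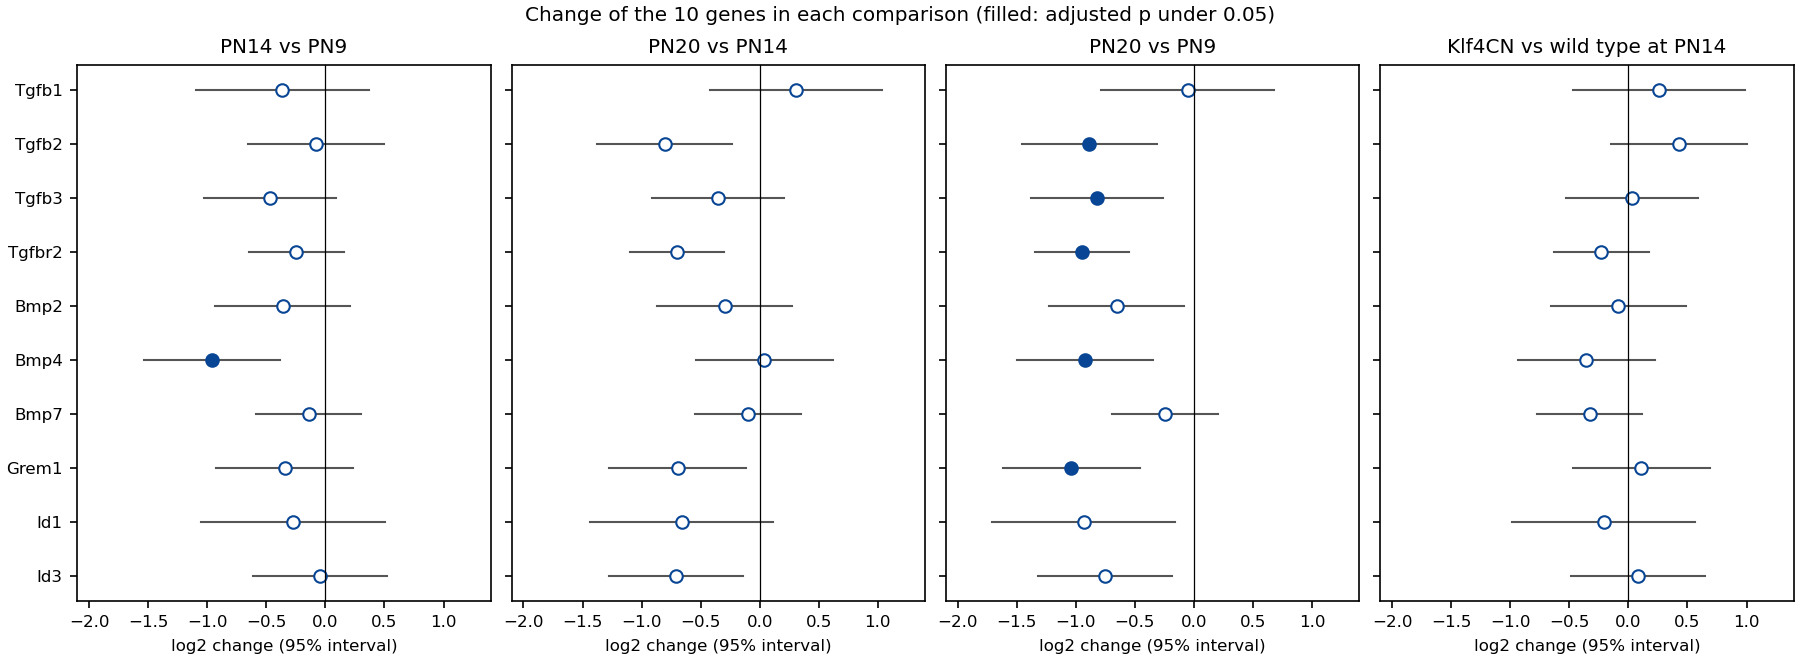
Log2 change (horizontal axis) of the 10 genes with its 95% interval in the 4 comparisons, each the later age minus the earlier one or Klf4CN minus wild type, with filled points for an adjusted p under 0.05. In PN20 against PN9 the 5 filled points lie between -1.04 and -0.82, and in Klf4CN against wild type no point is filled and every interval includes 0.

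Bmp4, a ligand that patterns the developing eye and eyelid, was the 1 gene of the 10 that passed early. It read 83.9, 76.4 and 125 at PN14, against 227, 269 and 122 at PN9, with the lowest PN9 array below the highest PN14 array. The fall from PN9 to PN14 was -0.96 ± 0.27 (SE, adjusted p 0.0467), or 1.95-fold. At PN20 it read 83.5, 89.2 and 119, below all PN9 arrays, and the fall from PN9 was -0.92 ± 0.27 (SE, adjusted p 0.0240), or 1.89-fold. From PN14 to PN20 the change was 0.04 (adjusted p 0.958).

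The early call of Bmp4 was close to the threshold. It was kept in 12 of 28 alternatives and lost without any 1 of 8 of the 12 arrays, namely PN9 replicate 1 or 2, PN14 replicate 1 or 2, any PN20 array or Klf4CN replicate 1, with adjusted p between 0.0543 and 0.150. The call at PN20 was lost without PN9 replicate 1 or 2 or PN20 replicate 1 or 2, with adjusted p between 0.0735 and 0.103.

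Bmp7, a ligand required for lens and eye formation, was measured differently by its probe sets. The brightest, 1435479_at, read 105, 75.6 and 132 at PN20, against 99.1, 126 and 151 at PN9, with overlapping groups and no call (-0.24, adjusted p 0.436). The probe set 1418910_at read 38.5, 54.6 and 73.2 at PN20, against 178, 145 and 107 at PN9, without overlap. That probe set fell, with a change of -1.16 ± 0.23 from PN9 to PN20 (SE, adjusted p 0.00360 over all kept probe sets). Its change from PN9 to PN14, of -1.02 ± 0.23 (SE, adjusted p 0.0245), passed too, where it read 52.5, 64 and 67.9. The third Bmp7 probe set was Present on no array. Bmp2, a ligand close to Bmp4 in sequence, read 153, 191 and 131 at PN20, against 292, 249.9 and 230.0 at PN9, below all PN9 arrays, and did not pass (-0.66 ± 0.27, SE, adjusted p 0.0894). Bmp2 passed in 5 of 28 alternatives, among them the threshold of 0.1.

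**Figure D3:**
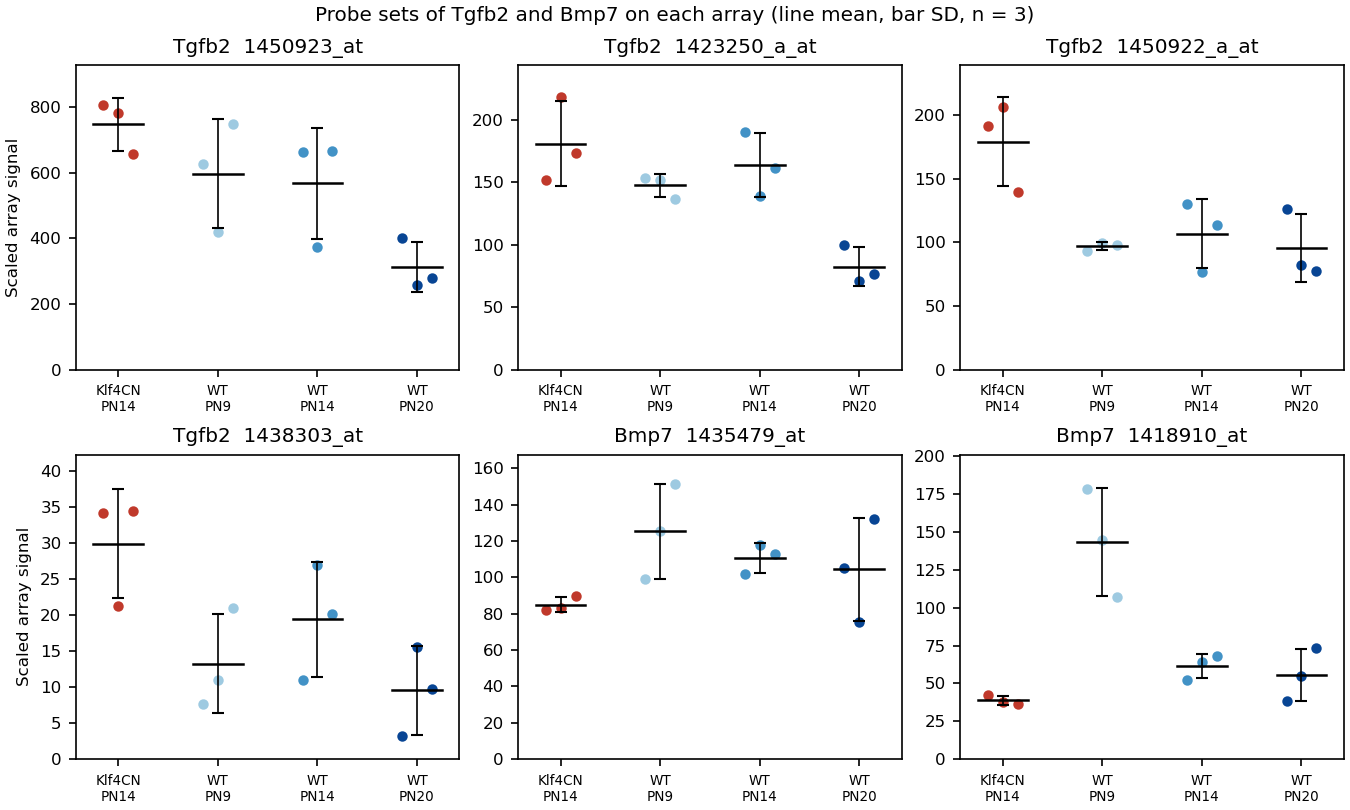
Scaled signal (vertical axes, each linear from 0) of the 4 probe sets of Tgfb2 and the 2 kept probe sets of Bmp7, with a point for each array, a line at the mean and a bar of 1 SD (n = 3). For Bmp7 the probe set 1418910_at reads 107 to 178 at PN9, above all other arrays, while the groups of 1435479_at overlap among the wild-type ages.

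Grem1, gremlin 1, binds BMP2, BMP4 and BMP7 outside the cell and blocks them, and it fell by the most of the 5 genes that passed. It read 129, 102 and 75.1 at PN20, against 244, 153 and 292 at PN9, and the groups did not overlap. The change was -1.04 ± 0.27 (SE, adjusted p 0.0132), or 2.06-fold lower. At PN14 it read 211, 130.5 and 184, above all PN20 arrays, but the late step did not pass (-0.70, adjusted p 0.201). The call from PN9 to PN20 was lost without PN9 replicate 1 (adjusted p 0.0506) or PN20 replicate 3 (adjusted p 0.0669).

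The Id genes, which encode inhibitors of basic helix-loop-helix factors and are among the direct targets of BMP signalling, did not pass. Id3 read 209.7, 149 and 169 at PN20, against 278, 401 and 254 at PN9. All PN20 arrays lay below the PN9 arrays, and the change of -0.75 ± 0.26 (SE) had an adjusted p of 0.0519. Id1 read 67.0, 84.3 and 181 at PN20, against 185, 394 and 123 at PN9, where replicate 2 stood far above the others. Its groups overlapped and its change of -0.94 ± 0.36 (SE) had an adjusted p of 0.0747. In the 28 alternatives Id3 passed from PN9 to PN20 in 9 and Id1 in 4. For both, these include the threshold of 0.1 and the fit without PN9 replicate 3 (adjusted p 0.0451 for Id3 and 0.0208 for Id1). At PN14 Id3 read 387, 232 and 286 and Id1 read 173, 199.7 and 143.

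The 2 shorter steps gave few calls. From PN9 to PN14 the values of 10 of 10 genes were lower, with a median log2 change of -0.31 beside 0.01 for all genes, but Bmp4 alone passed, where 2.66% of all genes fell and 7% changed. From PN14 to PN20 no gene of the 10 passed by limma, where 1.35% of all genes did. In that step 4 had an unadjusted p under 0.05, beside 16.9% of all genes, 8 of 10 values were lower, and the median log2 change was -0.51. Tgfbr2 passed in that step without PN14 replicate 3 (-0.90, adjusted p 0.0419) or without Klf4CN replicate 3 (-0.70, adjusted p 0.0367), with adjusted p over its 28 alternatives between 0.00767 and 0.223. In 3 of the 10, Tgfbr2, Id3 and Grem1, the PN20 arrays lay below all PN14 arrays, which held for 14.2% of all genes. Of 8 skeletal muscle markers 4 rose from PN9 to PN14, and from PN14 to PN20 none passed by limma, with summed signals of 259.8 to 8083 at PN9, 14421 to 23319 at PN14 and 3016 to 10124 at PN20, and their part in the results was not tested. All 3 comparisons between ages share groups of arrays, so their values are not independent.

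The authors' deposited table scores each probe set over 9 pairwise comparisons of arrays and gives a code for the comparisons passed. In the authors' deposited table the main probe sets of 5 genes pass from PN9 to PN20, namely Tgfb2, Tgfb3, Tgfbr2, Bmp4 and Grem1, beside 13.5% of the main probe sets of all genes. The Bmp7 probe set 1418910_at passes in the authors' deposited table from PN9 to PN20 and from PN9 to PN14, with a score of -9 in each. The Tgfb2 probe set 1423250_a_at passes from PN14 to PN20 in the authors' deposited table, with a score of -8. In the authors' deposited table no main probe set of the 10 genes passes in the steps from PN9 to PN14 and from PN14 to PN20, where 5.44% and 2.94% of those of all genes do.

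Stromal and vascular signal and the quality of the RNA also moved with age. The summed signal of the 12 stromal markers, which include Col1a1, Dcn and Pdgfra, ranged from 39451 to 41726 at PN20, against 60097 to 81088 at PN9, and 8 of the 12 fell (median log2 change -0.71). The 10 endothelial and mural markers summed to 4914 to 6607 at PN20, against 11285 to 15301 at PN9, and 4 of the 9 that could be tested fell. Mural Acta2 averaged 8833 of a mean sum of 13130 at PN9, and 4508 of 6023 at PN20. The endothelial marker Pecam1 was Present on no array, while Cdh5, Kdr, Tek, Emcn and Cldn5 were Present on every array. Of these, Kdr averaged 292 at PN9 and 299 at PN20, and the others had lower means at PN20. The 11 epithelial markers summed to 41669 to 44805 at PN20, against 26770 to 46499 at PN9. The signal of the 3′ beta-actin control over that of its 5′ control, which is higher where RNA is shorter, was 12.7 ± 3.45 at PN20 and 34.9 ± 11.4 at PN9 (SD, n = 3 each). The part of the stromal and vascular signal in the falls of the TGF-beta and BMP genes was not tested, and in such tissue RNA fewer cells of a type and less RNA per cell cannot be told apart. The ratio lay between 24.2 and 46.8 at PN9 and between 9.76 and 16.5 at PN20, without overlap. A fit with this ratio therefore cannot tell age and RNA quality apart, and the part of RNA quality in the falls was not tested. With the log2 actin ratio as a covariate, Tgfbr2 alone passed from PN9 to PN20 (-1.03, adjusted p 0.0434), and 9 of 10 values were lower. Over its 28 alternatives the adjusted p of Tgfbr2 lay between 0.000177 and 0.0434. The fitted log2 changes of the 4 genes that lost their call were -1.27 for Tgfb2, against -0.89 without the covariate, -1.21 for Grem1, against -1.04, -0.89 for Bmp4, against -0.92, and -0.66 for Tgfb3, against -0.82.

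**Figure D4:**
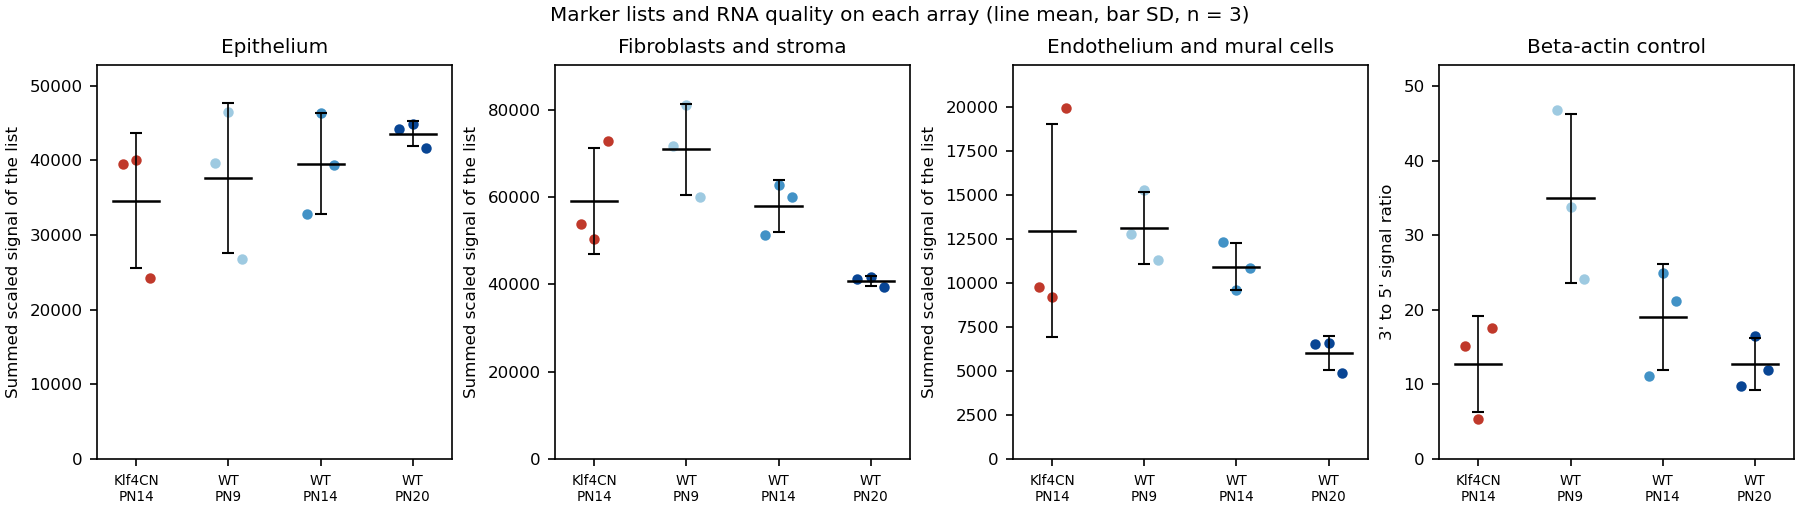
Summed scaled signal of the epithelial, the fibroblast and stromal, and the endothelial and mural marker lists, and the 3′ to 5′ beta-actin signal ratio (vertical axes, linear from 0), with a point for each array, a line at the mean and a bar of 1 SD (n = 3). The PN20 arrays lie below all others in the stromal and vascular sums, and Klf4CN replicate 3 is at 19970.1 in the vascular sum.

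In Klf4CN against wild type at PN14, none of the 10 genes passed, where 0.184% of all genes (26) did. Also at an unadjusted p under 0.05 none of the 10 main probe sets passed, 5 values were higher and 5 lower, and the median log2 change was -0.03. No main probe set of the 10 passes in the authors' deposited table, where 0.946% of those of all genes do. With 3 arrays a group the 95% intervals of the log2 changes are wide, and they still include changes such as 1.0 for Tgfb2 and -0.93 for Bmp4.

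Klf4CN replicate 3 stood apart from the other arrays labelled Klf4CN in its markers. Its vascular and mural sum was 19970.1, against 9777 and 9186 on the other two, its stromal sum was 72979, against 53877 and 50481, and its epithelial sum was 24234, against 39541 and 40039. It was also the array with the highest value of its group for Tgfb1, Tgfb3, Bmp7, Id3 and Grem1 in their main probe sets. It had the lowest value of its group for Tgfb2, Tgfbr2, Bmp2 and the Bmp7 probe set 1418910_at. Without it none of the 10 genes passed either, and the log2 change of Tgfb3 was -0.29 in place of 0.03, that of Id3 -0.19 in place of 0.08 and that of Grem1 -0.07 in place of 0.11. That of Bmp2 was 0.14 in place of -0.09, and that of Tgfb1, not above background in wild type, was -0.22 in place of 0.26.

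Bmp7 was the 1 gene of the 10 whose main probe set did not overlap between genotypes. It read 81.9, 83.2 and 89.4 on the arrays labelled Klf4CN, against 102, 118 and 113 in wild type at PN14, which is lower on 3 of 3 arrays but did not pass (-0.33 ± 0.21, SE, adjusted p 0.699). Such a lower, non-overlapping pattern held for 6.63% of all genes. Its probe set 1418910_at read 42.0, 37.8 and 36.2, against 52.5, 64 and 67.9 in wild type, and did not pass either (-0.50 ± 0.23, SE, unadjusted p 0.0472, adjusted p 0.649). Tgfb2 read 806, 784 and 656, against 664, 373 and 668 in wild type, with overlap (0.43, 95% interval -0.14 to 1.0, adjusted p 0.692). Its probe set 1450922_a_at read 192, 206 and 139 on the arrays labelled Klf4CN, above 129.7, 77.1 and 113 in wild type (0.68 ± 0.23, SE, unadjusted p 0.0112, adjusted p 0.483).

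The ligands, receptor, antagonist and Id genes other than Bmp7 overlapped between genotypes in their main probe sets. Tgfb3 read 105, 145 and 258 on the arrays labelled Klf4CN, against 176, 156 and 135 in wild type, and its Klf4CN spread covered the wild-type values. Tgfbr2 read 1794, 1784 and 1607, against 2259.8, 2406 and 1526 in wild type (-0.23, adjusted p 0.784). Bmp4 read 58.1, 85.5 and 66.7, against 83.9, 76.4 and 125 in wild type (-0.35, adjusted p 0.759). Of those Klf4CN arrays 2 of 3 were Present for Bmp4. Bmp2 read 173, 270.5 and 130.4, against 187, 146 and 274 in wild type, so that each group held a high array. The antagonist Grem1 read 149, 179.6 and 243, against 211, 130.5 and 184 in wild type. The BMP targets likewise did not separate the genotypes. Id1 read 167, 134 and 137, against 173, 199.7 and 143 in wild type, and Id3 read 259.5, 256 and 459, against 387, 232 and 286 in wild type. Tgfb1 read 20.0, 15.8 and 75.2, against 26.4, 19.0 and 25 in wild type. Its 1 Present call among the arrays labelled Klf4CN is given for the group, not for a named array.

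The rest of the pathway was read from a list of 88 further genes, of which 81 were on the array and 74 could be tested. From PN9 to PN20, 21 of the 74 fell and 3 rose, beside 24.3% of all genes that changed, and the median log2 change was -0.34, beside 0.02 for all genes. From PN9 to PN14 the list had 5 that fell and 1 that rose, beside 7% of all genes that changed, and from PN14 to PN20 4 fell and none rose, beside 1.35%. Leaving out 1 array gave 1 to 12 calls in place of the 6, and 1 to 10 in place of the 4, with the lowest without PN9 replicate 2 or PN14 replicate 1 for the earlier step and without PN14 replicate 1 or 2 or PN20 replicate 2 or 3 for the later one, and the highest without Klf4CN replicate 3 for both; array weights gave 20 and 16. In Klf4CN against wild type none passed by limma, with 8 at an unadjusted p under 0.05 (6 higher, 2 lower), beside 8.59% of all genes, 1 with array weights and none by the authors' deposited table. From PN9 to PN20 the authors' deposited table passes 14 of the 74, all lower, beside 13.5% of all genes in either direction. The 24 calls from PN9 to PN20 were 13 or 14 without PN9 replicate 1 or 2 or PN20 replicate 2 or 3, 15 with arrays scaled by all probe sets, 5 with the actin covariate and 41 with array weights. The list shares 5 genes with the marker lists, 3 stromal and 2 mural, and without them 18 of 69 fell and 3 rose from PN9 to PN20.

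Among the receptors, the type II BMP receptor Bmpr2 rose where Tgfbr2 fell. Bmpr2 read 3888, 3642 and 3228 at PN20, against 2018, 1847 and 2184 at PN9 (0.82 ± 0.18, SE, adjusted p 0.00586). It does not pass in the authors' deposited table, with a score of 5, where Tgfbr2, Eng and Acvr2b pass with -9 each. Eng, endoglin, a co-receptor of endothelial cells, fell by 2.48-fold (adjusted p 0.000827) and the activin type II receptor Acvr2b by 1.96-fold (adjusted p 0.0401). The other 11 of the 14 receptors and co-receptors did not pass, and the median log2 change of the 14 was 0.31.

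Some of the other secreted antagonists also fell. Of 13 tested, 5 fell and none rose, with a median log2 change of -0.50, where 10.8% of all genes fell, and the counts of the other roles from PN9 to PN20 stand beside the same share. Bmper, a BMP-binding protein of vessels, read 66.3, 19.6 and 102 at PN20, against 229, 225 and 333 at PN9, and was 3.91-fold lower (adjusted p 0.00306). Fstl1, a follistatin-like glycoprotein of stroma, was 3.03-fold lower (adjusted p 0.000125) and Nbl1, a relative of gremlin, 1.80-fold lower (adjusted p 0.0466). Among the 10 genes of latency and activation, which store and release TGF-beta in the matrix, 3 fell and none rose. Ltbp2 was 4.56-fold lower (adjusted p 0.000575), Fbn2, fibrillin 2, 3.22-fold lower (adjusted p 0.000643) and Ltbp3 1.91-fold lower (adjusted p 0.00467).

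Among the other ligands, 3 of 9 fell, Inha by 2.61-fold (adjusted p 0.00104), Gdf10 by 2.30-fold (adjusted p 0.0493) and Inhbb by 1.58-fold (adjusted p 0.0396). Inside the cell, Smad2, which carries the TGF-beta signal to the nucleus, rose. Smad2 read 345, 227 and 264 at PN20, against 125, 157 and 127 at PN9 (0.94 ± 0.22, SE, adjusted p 0.00806), and the other 4 Smads tested as transducers did not pass. Of the 9 intracellular inhibitors, 3 fell and 1 rose, with a median log2 change of -0.46. Smad6, an inhibitory Smad, was 1.79-fold lower (adjusted p 0.0338) with overlapping groups, Pmepa1 1.44-fold lower (adjusted p 0.0427) and Ski, a Smad co-repressor, 1.37-fold lower (adjusted p 0.0466). Smurf1, a ubiquitin ligase that targets Smads, was 1.74-fold higher (adjusted p 0.0392). Smad2 and Smurf1 do not pass in the authors' deposited table from PN9 to PN20, with scores of 9 and 4. Inhbb, Smad6 and Pmepa1 do not pass there either, with scores of -6, -2 and -8, while Inha and Gdf10 do.

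Of the targets outside the 10 genes, Ccn2, connective tissue growth factor, was high at PN14. It read 365, 543 and 478 at PN9, 972, 1404 and 1137 at PN14, and 356, 237 and 233 at PN20. It rose from PN9 to PN14 by 1.32 ± 0.23 (SE, adjusted p 0.00658) and was 4.10-fold lower at PN20 than at PN14 (adjusted p 0.00244). Fn1, fibronectin, fell from PN14 to PN20 by 2.13-fold (adjusted p 0.0166), and Tagln, a smooth muscle protein that is also in the mural list, by 3.73-fold (adjusted p 0.0475). Of the 14 targets, 5 fell from PN9 to PN20 and none rose.

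**Figure D5:**
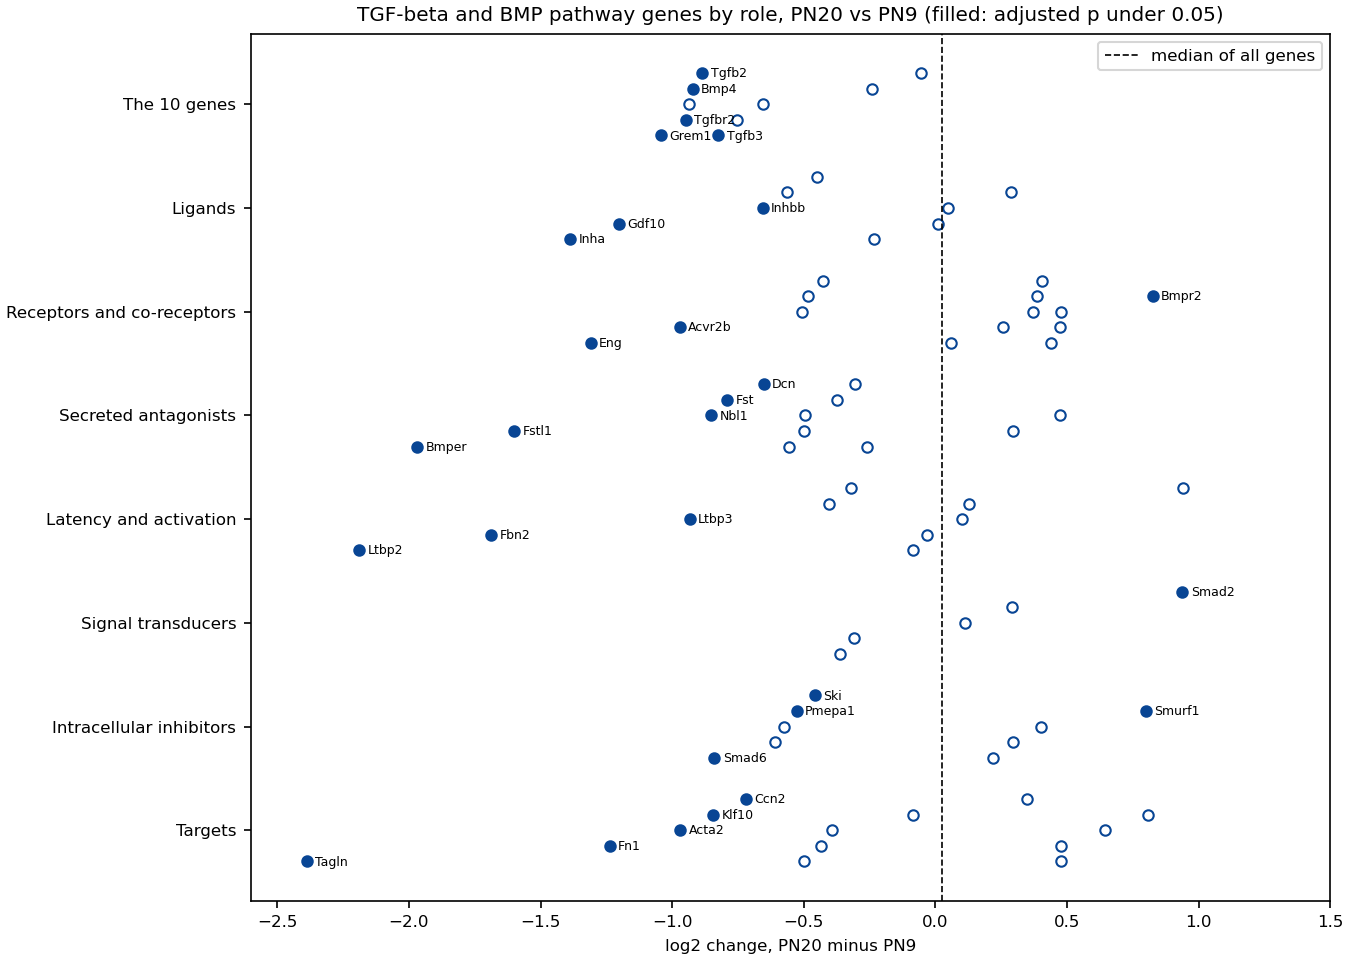
Log2 change from PN9 to PN20 (horizontal axis, PN20 minus PN9) of the 10 genes and of 74 further pathway genes in rows by role, a point a gene, filled and named at an adjusted p under 0.05; height within a row only separates points. The dashed line is the median of all genes (0.02), and 3 filled points of the list, Bmpr2, Smad2 and Smurf1, lie to its right.

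For the 3 genes with the smallest p of the moderated F over the ages, the genes most like them across the 12 arrays were found by Pearson's r on the log2 scale, as a description over arrays that share groups and scaling. Tgfbr2 was most like Col14a1 (r = 0.963), a fibril-associated collagen, Matn2 (r = 0.956), a matrilin, and C1qtnf2 (r = 0.952). Bmp4 was most like Dph5 (r = 0.955), Ppm1f (r = 0.947) and Galns (r = 0.938), a lysosomal sulfatase. Grem1 was most like Syt11 (r = 0.943), Lama4 (r = 0.923), a laminin chain of vessel basement membranes, and Rnf144a (r = 0.920). Col14a1 averaged 1863 ± 244 at PN20 and 4107 ± 337 at PN9, and Lama4 137 ± 14.1 at PN20 and 443 ± 66.7 at PN9 (SD, n = 3 each).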

How the data were processed

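RNA of laser-captured forniceal epithelium was amplified in 2 cycles and hybridized to Affymetrix arrays, per the labels' protocols. The deposited values are signal intensities that the authors obtained in GCOS 1.4, per the file headers and the submitters' processing notes, on a linear scale with each array's trimmed mean set to one value. The deposited score of each probe set, over 9 pairwise comparisons of arrays, the number of Present calls in each group and the code for comparisons passed are also the authors', per the file headers.

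From these, probe sets above the 40th percentile of their array on at least 3 arrays were kept (30600), arrays were scaled to a common median of the kept probe sets (factors 0.876 to 1.14), and log2(signal + 16) of each gene's brightest kept probe set was fitted with limma 3.58.1 in R 4.3.3. The fit took all 12 arrays, 1 mean per group and a variance moderated along a trend; 8 degrees of freedom were residual and 6.02 prior. The offset pulls the folds of dim genes toward 1. Genes were named by the platform annotation. Tested on simulated data for PN20 against PN9, the fit recovered 48% of genes changed by 1 on the log2 scale and 96% of those changed by 2. A far smaller share of genes was changed there than the 24.3% that passed in the real comparison. Recovery depends on that share, so these percentages need not hold for the real comparison.

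The 10 genes, the pathway and marker lists and the tests were chosen with earlier results of these data known. All 10 genes are named in each comparison; of the pathway list, up to 3 called genes of largest change a role and comparison; and the 3 nearest genes for the 3 smallest F p-values. Not every such gene is printed in each comparison. Replicate numbers in the labels showed no clear pairing of the arrays. Alternatives covered offset, scaling, filter, probe set, variance model, array weights, groups fitted, replicate block, actin covariate, call rule and leaving out each array.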

Additional observations from a re-analysis of the deposited data

How the results depend on the processing

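The 10 genes kept their direction wherever they were called, in each of the alternatives tried, and 3 arrays a group and the brightness of the probe sets limit what can be called. From PN9 to PN20, where 5 genes passed, 8 passed with values as deposited or at an adjusted p under 0.1 and 1 with the actin covariate, where the 4 lost calls had changes of -1.27 to -0.66. Leaving out each array gave 1 to 6, not always of the same genes (1 without PN9 replicate 1, and 3 without PN9 replicate 2 or any PN20 array). From PN9 to PN14, where 1 passed, 0 passed with offset 1, scaling by the median over all probe sets, no filter, every probe set tested, no variance trend, only 2 groups fitted, the replicate block, the actin covariate or the authors' code, and 0 to 1 without each array. From PN14 to PN20, where 0 passed, 1 passed with values as deposited, quantile normalization, only 2 groups fitted or an adjusted p under 0.1, 3 with array weights, and 0 to 1 without each array. Over the ages, where 4 passed, 2 passed with the median of all probe sets, 7 with array weights, 0 with the actin covariate, and 1 to 6 without each array. In Klf4CN 0 passed in each alternative. Tgfb1 had no value with the filter on Present calls.

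Counts over all genes moved more. From PN9 to PN14 (992) they were 566 with the median of all probe sets, 2969 with array weights, 131 with the actin covariate, 2051 at an adjusted p under 0.1, and 297 to 2075 without each array. From PN14 to PN20 (191) they were 98 with that median, 112 with no filter, 119 with no trend, 1495 with array weights, 1137 with 2 groups fitted, 102 with the replicate block, 100 with the actin covariate, 647 at an adjusted p under 0.1, 417 by the authors' code, and 2 to 725 without each array. From PN9 to PN20 (3443) they were 5210 with every probe set, 5830 with array weights, 576 with the actin covariate, 1911 by the authors' code, and 2090 to 4336 without each array. In Klf4CN (26) they were 10 with that median, 17 with every probe set, 453 with array weights, 6 with 2 groups, 5 with the actin covariate, 134 by the authors' code, and 4 to 71 without each array. Over the ages (2850) they were 4278 with every probe set, 5841 with array weights, 426 with the actin covariate, and 1602 to 4073 without each array.

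The replicate numbers were set as a block although they did not pair the arrays: of 18 same-numbered pairs 5 correlated over 0.1 (r from -0.234 to 0.265), and 5 of 12 arrays were most like an array of their own number. Values as deposited shifted the median of all genes from PN9 to PN20 by -0.14 (log2), and 40.7% of calls were then higher, against 55.5%. From PN9 to PN14 62.0% of calls were higher, 48.1% as deposited and 74.9% with the median of all probe sets. From PN14 to PN20 it was 49.7% and 28.6%, and in Klf4CN 42.3% and 30.0%, without and with that median. The causes were not tested.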
